A study of Mus musculus with 2 samples.

Results

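Chemokines and their receptors were examined as a gene family on 2 Affymetrix Mouse 430 2.0 arrays, 1 of small intestine and 1 of colon RNA. Members were all genes whose symbol in the array annotation began with Ccl, Cxcl, Ccr, Cxcr, Ackr, Xcl or Xcr and a number, together with Cx3cl1 and Cx3cr1, and each was represented by the brightest probe set that named it alone. This gave 54 of the 18194 genes named on the arrays, with 33 ligands, 17 signalling receptors and 4 atypical receptors. Both samples were tissue biopsies of wild-type adult mice, and the labels give neither strain, part of the organ nor number of animals. The study's methods name C57B6 mice, jejunum and distal colon, but they point to another deposit for the arrays. Values are log2 expression levels. A level of 5 was taken as background, values under it were raised to it before a difference was formed, and a tissue was called the higher one from a difference of 3-fold. With 1 array per tissue no difference has a replicate check and no test was made.

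Chemokines are small secreted or membrane-bound proteins, named after the spacing of their first cysteines (CC, CXC, C and CX3C), that guide leukocytes through receptors coupled to inhibitory G proteins. Some are made steadily by epithelium or lymphoid stroma and place cells in a tissue, whereas others are induced in inflammation. Atypical receptors bind chemokines without G protein signalling and take them up. In the gut, the ligand Ccl25 of the small intestinal epithelium and its receptor Ccr9 on lymphocytes are the textbook pair of regional homing, and Ccl28 is known as its counterpart in the colon.

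Of the 54 members, 7 were higher in the small intestine, namely Ccl25, Ccl5, Ccr9, Cxcl9, Cxcl16, Cx3cl1 and Cxcl10, and 1, Ccl28, was higher in the colon. These are 13.0% and 1.85% of the family, beside 3.46% of all named genes that passed 3-fold towards the small intestine and 3.33% that passed it towards the colon. The median difference was 0 over the members and 0 over all named genes. Above background on at least 1 array were 29 members, or 53.7%, beside 60.5% of all named genes. Of these 29, 17 were above it on both arrays, 10 on the small intestine array only and 2 on the colon array only. Counted by array, 27 of the 29 were above it in small intestine and 19 in colon. Over all named genes, 11016 were above it on either array, 10418 in small intestine and 10412 in colon. The other 25 members were not above background on either array, with values of 1.81 to 4.88 in the small intestine and 1.79 to 4.68 in the colon.

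**Figure D1:**
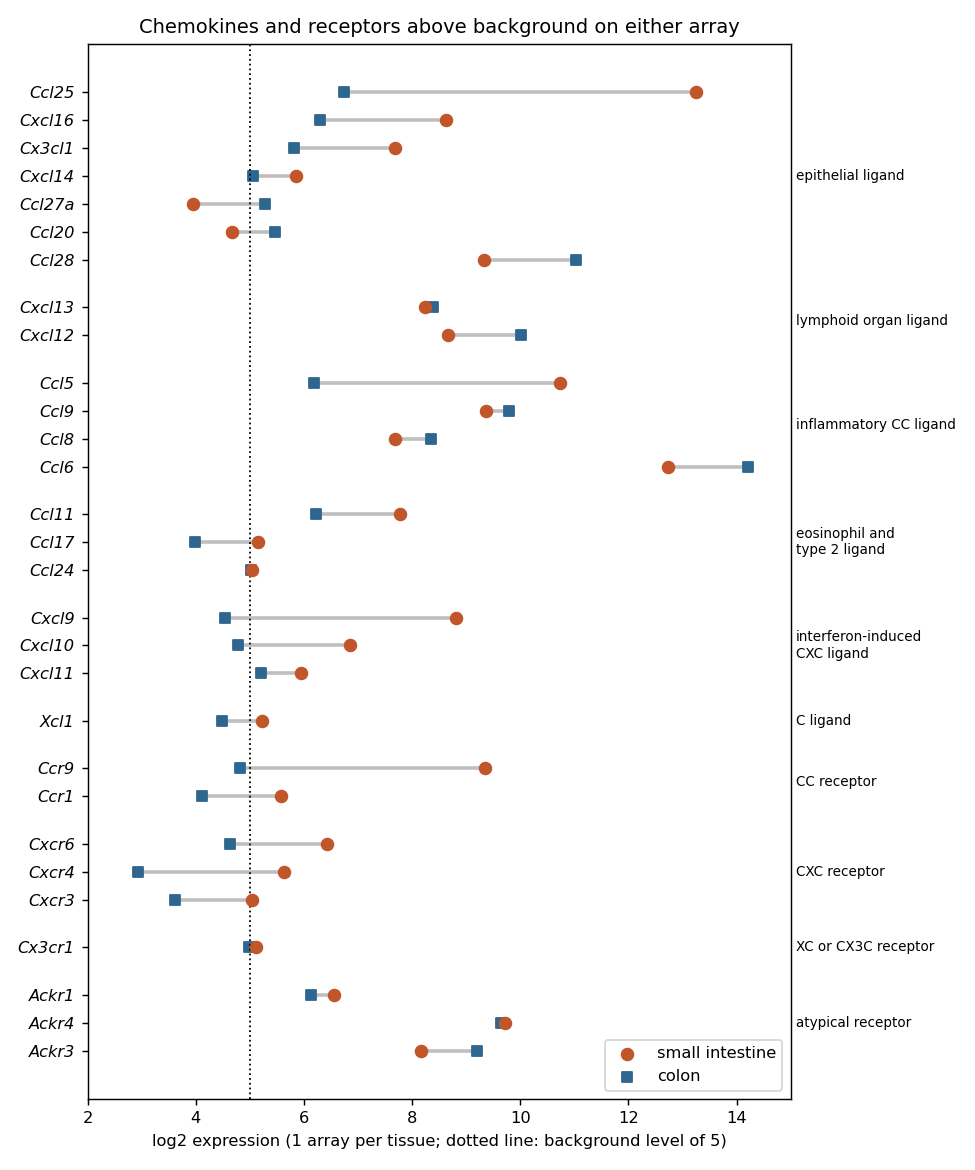
Log2 expression (horizontal axis) of the 29 members above background on either array, grouped by role, as circles for small intestine and squares for colon, with a dotted line at the background of 5. Ccl25 reaches 13.26 in the small intestine against 6.75 in the colon, and all 6 signalling receptors shown have their colon square below the line.

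The ligands grouped as epithelial held 3 of the 7 calls for the small intestine and the call for the colon. Ccl25 had a level of 13.26 in small intestine and 6.75 in colon, a 91.0-fold difference with both values above background. Ccl28, a mucosal ligand of Ccr10 that draws plasmablasts making immunoglobulin A, went the other way with 9.32 in small intestine and 11.03 in colon, 3.26-fold higher in the colon. Both ligands were thus present in both tissues, and their order between the tissues was reversed. Cxcl16, a transmembrane ligand of Cxcr6, had 8.63 in small intestine and 6.29 in colon, a ratio of 5.08. Cx3cl1, the membrane-bound ligand of Cx3cr1 on mononuclear phagocytes, had 7.69 in small intestine and 5.81 in colon, a ratio of 3.70.

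The other 4 epithelial ligands stayed under 3-fold and near or below background. Cxcl14 had 5.86 in small intestine and 5.05 in colon. Ccl20, which recruits Ccr6-bearing cells to the epithelium over lymphoid follicles, had 4.67 in small intestine and 5.46 in colon. Ccl27a, best known from skin, had 3.95 in small intestine and 5.28 in colon, so that these last 2 ligands were above background in the colon only. Cxcl17, a mucosal chemokine, was above background in neither.

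Since Ccl25 had the widest difference on the brightest probe sets, the 250 bases before 1 of its annotated starts are given here, read from the RefSeq promoter table at chr8:4349338-4349587 of build GRCm38.p6, plus strand. Capitals mark a TATAAA, whose first base lies 16 bases before the start, and a match to the Cdx motif TTTATG on the opposite strand, 192 bases before it.
Ccl25: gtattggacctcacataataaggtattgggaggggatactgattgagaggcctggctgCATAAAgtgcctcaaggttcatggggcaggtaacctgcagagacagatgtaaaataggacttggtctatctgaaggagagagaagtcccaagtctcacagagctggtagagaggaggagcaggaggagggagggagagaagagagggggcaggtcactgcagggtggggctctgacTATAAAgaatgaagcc
The table holds another start of Ccl25 farther upstream, whose window had neither motif. On either strand, TATAAA was found in such windows of 14.3% of 27025 genes and TTTATG in 12.4%. A match of this kind describes the letters only, and binding of Cdx2, a transcription factor of intestinal epithelium, was not measured.

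Ccl5 and 3 CXC ligands induced by interferon gamma leaned to the small intestine, and they are ligands that attract T and NK cells. Ccl5 had 10.74 in small intestine and 6.20 in colon, a 23.3-fold difference. Cxcl9 had 8.81 in small intestine and 4.54 in colon, or at least 14.1-fold, since the colon value lay under background and was raised to 5. Cxcl10 had 6.85 in small intestine and 4.78 in colon, or at least 3.60-fold. Cxcl11 had 5.94 in small intestine and 5.21 in colon and did not reach 3-fold (1.66-fold). Cxcl11 is not among the protein-coding genes of the annotation used, and its values describe RNA only. The 3 CXC ligands thus shared their direction and differed in size, and Cxcl10 was below 3-fold with a background level of 6 (log2 difference 0.85).

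Cxcl9 and Cxcl10 lie close together, with 1 protein-coding gene between them in the annotation, and the 250 bases before their starts are set side by side as the part where sequences of an interferon response are sought. Capitals mark the interferon-stimulated response element (GAAA, any 2 bases, then GAAA), the letters TATAAA and the Cdx motif. The GATA motif (AGATAA, in 11.4% of 27025 genes) is marked too, and matches are on either strand. In Cxcl9 the TATAAA begins 195 bases before the start. The windows are chr5:92328080-92328329 for Cxcl9 and chr5:92348890-92349139 for Cxcl10, both on the minus strand of GRCm38.p6 and written 5′ to 3′ towards the gene.
Cxcl9: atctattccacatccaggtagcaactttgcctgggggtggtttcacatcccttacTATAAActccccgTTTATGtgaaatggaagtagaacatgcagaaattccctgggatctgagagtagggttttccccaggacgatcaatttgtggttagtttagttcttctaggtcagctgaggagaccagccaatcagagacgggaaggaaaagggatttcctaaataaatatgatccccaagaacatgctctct
Cxcl10: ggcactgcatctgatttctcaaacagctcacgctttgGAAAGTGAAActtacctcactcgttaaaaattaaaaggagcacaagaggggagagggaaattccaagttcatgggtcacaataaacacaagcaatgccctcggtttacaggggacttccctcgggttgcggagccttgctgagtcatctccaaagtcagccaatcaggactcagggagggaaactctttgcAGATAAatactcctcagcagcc
Cxcl10 held the response element 213 bases before its start, as did 3.46% of all 27025 genes with a window, and of the 41 members with a window only Cxcl14 held it too. These letters were not found in the window of Cxcl9, nor was the gamma-interferon activation site TTCNNNGAA, which 8.13% of the genes held. Other interferon elements were not sought, so that the window of Cxcl9 may hold one. The windows of Cxcl9 and Cxcl10 shared none of the motifs sought.

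The remaining inflammatory CC ligands were either higher in the colon by less than 3-fold or below background. Ccl6, a chemokine of rodent myeloid cells that acts on Ccr1, had 12.74 in small intestine and 14.22 in colon, 2.78-fold higher in the colon. Ccl9, a Ccr1 ligand of the same kind, had 9.36 in small intestine and 9.80 in colon, and Ccl8, which in mouse acts on Ccr8, had 7.69 in small intestine and 8.36 in colon. Against these, the monocyte ligands Ccl2, Ccl7 and Ccl12 and the macrophage inflammatory proteins Ccl3 and Ccl4 were not above background on either array. Of the 9 members of the group, 4 were therefore measured above background, on both arrays in each case.

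The neutrophil ligands Cxcl1, Cxcl2, Cxcl3, Cxcl5 and Cxcl15 were not above background in either tissue, nor was Cxcr2, the receptor of the first 4. In the RefSeq windows, Cxcl1, Cxcl2 and Cxcl3 each held the NF-kappaB motif (GGG, any 2 bases, then TTTCC), as did Ccl20, Ccl9 and Ccr3 among the 41 members and 1.65% of all genes with a window. The 3 genes carried 1 copy with the same letters, shown in capitals with 20 bases on each side from the plus strand of GRCm38.p6. The stretches are chr5:90891154-90891203, chr5:90903782-90903831 and chr5:90786008-90786057, in the order of the lines, and the motif begins 71, 97 and 73 bases before the start. Cxcl1 and Cxcl2 each held a further match that is not shown in capitals.
Cxcl1: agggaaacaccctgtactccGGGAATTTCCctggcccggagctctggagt
Cxcl2: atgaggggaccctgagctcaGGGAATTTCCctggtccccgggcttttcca
Cxcl3: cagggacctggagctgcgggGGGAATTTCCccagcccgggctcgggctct
NF-kappaB is the factor through which microbial products and cytokines induce such ligands. The defining markers of neutrophils were likewise low, with 1 of 7 measured above background in the small intestine and 0 of 7 in the colon. For all 18194 named genes these counts were 10418 and 10412.

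Of 5 ligands of eosinophils and type 2 responses, none passed 3-fold, and 2 were above background on both arrays. The eotaxin Ccl11 had 7.77 in small intestine and 6.23 in colon, 2.91-fold, just under the rule, and reached 3-fold after quantile normalization (log2 difference 1.60). Ccl24, a second ligand of the eosinophil receptor Ccr3, had 5.04 in small intestine and 5.02 in colon. Ccl17, a ligand of Ccr4, had 5.15 in small intestine and 3.98 in colon, a difference that was 0.15 with values raised to 5 and 1.17 without. Ccl1 and Ccl22 were not above background on either array. Xcl1, which NK and CD8+ T cells release to attract dendritic cells with Xcr1, had 5.22 in small intestine and 4.48 in colon.

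Of the ligands of lymphoid stroma, 2 had a probe set of their own. Cxcl13, which forms B cell follicles through Cxcr5, had 8.24 in small intestine and 8.39 in colon, a near-equal level (1.11-fold). Cxcl12, the ligand of Cxcr4, had 8.67 in small intestine and 10.02 in colon, 2.55-fold higher in the colon. A further 4 probe sets named several genes, with a symbol of the family among them, and were not used.

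The signalling receptors were seen above background in the small intestine or not at all. None of the 17 was above it in the colon, and 6 were above it in the small intestine. Of all 18194 named genes, 10418 exceeded background on the small intestine array and 10412 did so on the colon array. Of the 6 receptors, Cxcr3 (5.04 in small intestine) and Cx3cr1 (5.11, against 4.99 in colon) lay close to the line. The split between the tissues thus depends in part on where the background level was set. Ccr9 had 9.35 in small intestine and 4.82 in colon, a difference of at least 20.4-fold. Cxcr6, found on tissue-resident T cells and innate lymphoid cells, had 6.44 in small intestine and 4.64 in colon, or at least 2.71-fold. Cxcr4 had 5.64 in small intestine and 2.93 in colon, and Ccr1, a receptor of monocytes and neutrophils, 5.57 in small intestine and 4.11 in colon.

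For Cxcr4 the chosen background level decided the size. Its difference was 0.64 with values raised to 5, 1.64 with a level of 4 and 2.71 with the values as they stood, and Cxcr6 passed 3-fold under the last 2 of these settings as well, with 1.80 in both. Cxcr3, the receptor of Cxcl9, Cxcl10 and Cxcl11, lay at the background line with 5.04 in small intestine and 3.62 in colon. Cx3cr1 did so in both tissues, with 5.11 in small intestine and 4.99 in colon. The receptors Ccr2, Ccr3, Ccr4, Ccr6, Ccr7, Ccr8, Ccr10, Ccr1l1, Cxcr5 and Xcr1, and Cxcr2 named above, were not above background on either array. In whole tissue, fewer cells with a receptor and less receptor RNA per cell cannot be told apart.

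Atypical receptors were unlike the signalling ones in being above background in both tissues in 3 of 4 cases, and none reached 3-fold. Ackr4, which takes up Ccl25 and the ligands of Ccr7, had 9.73 in small intestine and 9.65 in colon on its brightest probe set, of the shared type marked _x. A further probe set had 10.05 in small intestine and 9.18 in colon (1.83-fold), so that its difference was 0.08 or 0.87, under 3-fold either way. The remaining probe set of Ackr4 had 2.82 in small intestine and 2.81 in colon, below background on both arrays, so that its probe sets disagree on its level. Ackr3, which takes up Cxcl12, had 8.16 in small intestine and 9.20 in colon, 2.06-fold higher in the colon and in the direction of Cxcl12. Ackr1, the chemokine carrier of venules and red cells, had 6.55 in small intestine and 6.13 in colon. Ackr2 was not above background on either array.

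Set beside their receptors, 10 ligand and receptor pairs had both partners above background on at least 1 array. Both partners passed 3-fold for Ccl25 with Ccr9, while Cxcl16 was 5.08-fold and Cxcr6 at least 2.71-fold higher. Cxcr6 passed it too at a background of 4 or with no floor, and Ccr9 did not with the median over probe sets or without shared types. Ccl5, Cxcl9, Cxcl10 and Cx3cl1 passed it while the receptor measured here, Ccr1, Cxcr3 or Cx3cr1, did not. For Cxcl12 with Cxcr4 and for Ccl6 and Ccl9 with Ccr1 the ligand was lower in the small intestine and the receptor higher, none of them past 3-fold. Ccl28 had no receptor to set beside it, since Ccr10 (2.88 in small intestine and 2.49 in colon) and Ccr3 were below background.

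**Figure D2:**
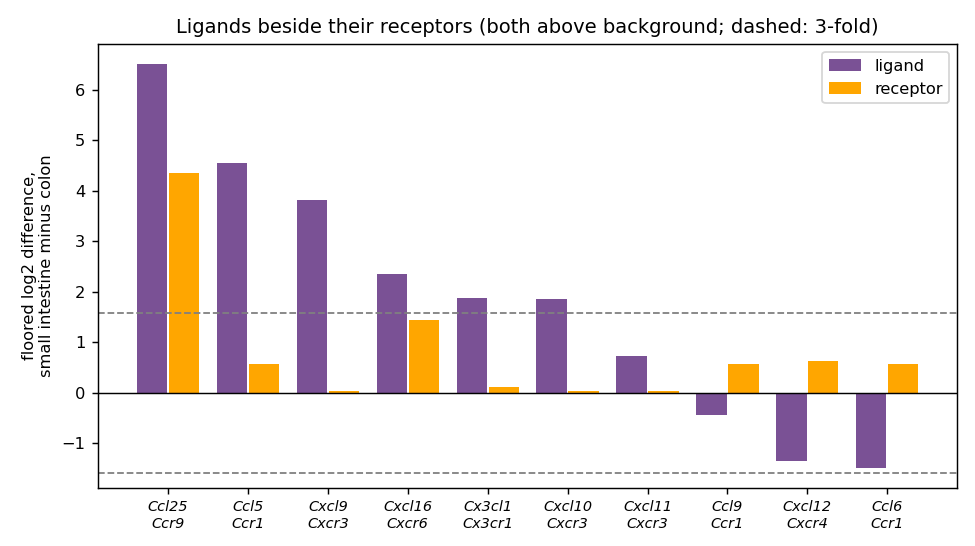
Floored log2 difference, small intestine minus colon (vertical axis), of each ligand and of its receptor for the 10 pairs above background, with dashed lines at 3-fold. Ccl25 and Ccr9 stand at 6.51 and 4.35, and the last 3 pairs have a negative ligand bar beside a positive receptor bar.

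Several calls rested on 1 of a gene's probe sets, which are groups of short oligonucleotides placed mostly near the 3′ end of a transcript. Of the 29 members above background, 16 had more than 1 probe set of their own. Over all genes, differences of probe sets of the same gene, above background on both arrays, had a pooled SD of 0.54 (3535 genes), and over the 7 members that allowed it the SD was 0.71. The differences of Ccl25 (6.51) and Ccl5 (4.54) were larger than this spread, which describes probe sets and not samples. Neither gene entered it, since Ccl5 had 1 probe set and the second of Ccl25 was below background (3.56 in small intestine and 3.18 in colon). Because the spread leaves out such dim probe sets, it is no check on the size of these differences.

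Ccr9 was the most divided. Its 5 probe sets included the brightest one, of the type marked _x that may share oligonucleotides with other genes, and a second with 5.75 in small intestine and 3.54 in colon, while the other 3 were not above background. With the median over probe sets, or without shared types, its difference was 0. Cxcl16 had a second probe set with 7.23 in small intestine and 5.81 in colon (log2 difference 1.42), which gave the same direction at under 3-fold.

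Cx3cl1 had a second probe set with 5.66 in small intestine and 5.61 in colon, so that its call came from 1 probe set of 4. Ccl28 had 5.93 in small intestine and 6.70 in colon on a further probe set and 5.62 in small intestine and 5.60 in colon on the last, and its median difference of -0.77 was under 3-fold. The second probe set of Cxcl9 had 5.86 in small intestine and 4.30 in colon, a smaller difference in the same direction. Those of Ccl6 were close together, with differences of -1.48 and -1.37, as were those of Cxcl12 above background, with -1.35 and -1.17. Ccl25 had a second probe set that was not above background on either array, and with the median over its probe sets its log2 difference was 3.41, past 3-fold but below the 4.54 of Ccl5. Ccl5 and Cxcl10 had 1 probe set each.

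Further probe sets of members without a call were under 3-fold as well. That of Ccl9 had 5.76 in small intestine and 6.65 in colon, and that of Cxcl14 had 5.70 in small intestine and 5.17 in colon, each with the sign of the brightest one. That of Cxcl13 had 4.55 in small intestine and 5.06 in colon. Those of Cxcl11, Cxcr6, Ccr1 and Cx3cr1 were not above background on either array.

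**Figure D3:**
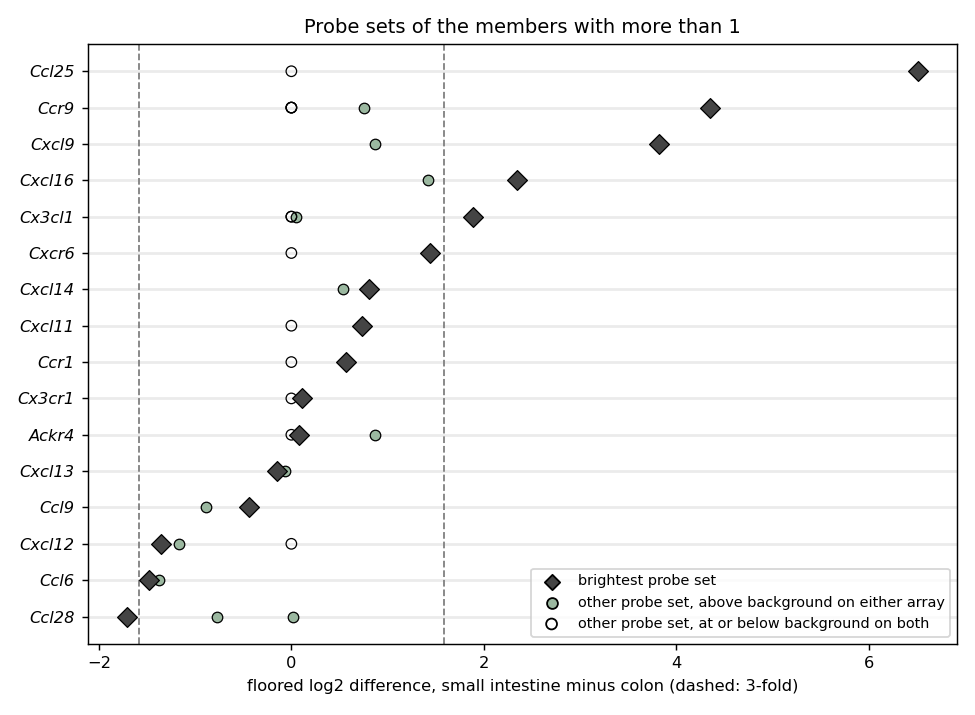
Floored log2 difference, small intestine minus colon (horizontal axis), of every probe set of the 16 members above background that have more than 1. Diamonds are the brightest probe set of a gene, filled circles other probe sets above background on either array, open circles those at or below it on both, and dashed lines mark 3-fold, which no second probe set passes.

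The control transcripts of the 2 arrays differed along their length. Bacterial poly-A transcripts, which are spiked into RNA before labelling, were alike at their 3′ ends, with a median difference of 0.26 over 8 probe sets. At their 5′ ends they were lower on the small intestine array, with a median difference of -2.30 and a range of -2.73 to -0.68. The 5′ probe set of Gapdh also was lower there, with 9.31 in small intestine and 10.58 in colon, while its 3′ probe set had 12.92 in small intestine and 12.90 in colon. The shift has the sign of the 9 negative differences in the family and is opposite to that of the 20 positive ones. The 9 include Ccl28 and, under 3-fold, Ccl6 (-1.48), Cxcl12 (-1.35) and Ackr3 (-1.04). The 20 include the 7 members called for the small intestine. The position of each member's oligonucleotides was not known, and the part of the shift in the results was not tested. Hybridisation controls had a median difference of 0.02 over 18 probe sets, with a range of -1.52 to 0.33.

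**Figure D4:**
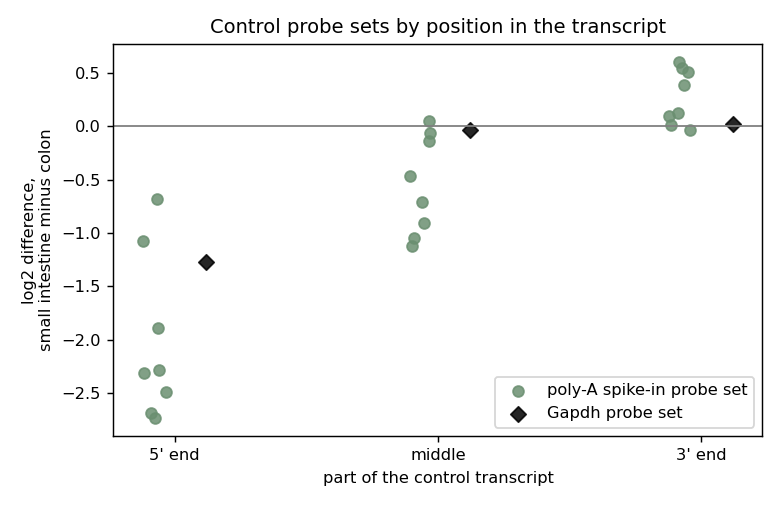
Log2 difference, small intestine minus colon (vertical axis), of control probe sets at the 5′ end, the middle and the 3′ end of the transcript, for poly-A spike-ins (circles) and Gapdh (diamonds). The 5′ probe sets lie between -2.73 and -0.68 and the 3′ probe sets near 0 or above.

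Family members that are neighbours in the genome did not share their direction throughout. Among protein-coding genes in the order of the GRCm38.p6 annotation, Ccl5, Ccl9, Ccl6, Ccl3 and Ccl4 follow each other directly, and held the call of Ccl5 for the small intestine (4.54), negative differences of Ccl9 (-0.44) and Ccl6 (-1.48) and 2 genes below background. Cx3cl1, 3.70-fold higher in the small intestine, stands between Ccl22 and Ccl17, neither of which passed 3-fold. In the receptor cluster of Ccr9, Cxcr6, Xcr1, Ccr1, Ccr1l1, Ccr3 and Ccr2, the genes Ccr9, Cxcr6 and Ccr1 were above background in the small intestine and the other 4 in neither tissue. The CXC ligands Cxcl5, Cxcl3, Cxcl15, Cxcl1 and Cxcl2 form a run, with 2 other genes after Cxcl5. These named ligands were all below background, and the 2 other genes are not members by the symbol rule. Pf4, a related gene that the symbol rule does not take in, had 6.21 in small intestine and 6.64 in colon.

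Other genes of chemokine signalling and adhesion are to be read beside the 3.46% and 3.33% of all named genes that passed 3-fold towards small intestine and colon. Of 35 measured genes of receptor signalling, 30 were above background in small intestine and 26 in colon. Of the 35, 2 (5.71%) were called for small intestine and 1 (2.86%) for colon, and the median difference was 0.19. Coro1a, an actin regulator of leukocytes (10.02 in small intestine and 7.88 in colon, 4.41-fold), and Rassf5, an adaptor of integrin activation (8.66 in small intestine and 6.77 in colon, 3.70-fold), were higher in the small intestine. Gnai1, an inhibitory G protein subunit, was 3.04-fold higher in the colon, with 8.38 in small intestine and 9.99 in colon.

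Of 25 adhesion and homing genes 1 was higher in small intestine and 2 in colon, with a median of 0. The gene higher in the small intestine was Itgae, the integrin chain that holds intraepithelial lymphocytes to E-cadherin, with 9.12 in small intestine and 5.83 in colon (9.81-fold). Those higher in the colon were Gcnt1, an enzyme of selectin ligands (3.53-fold), and Glycam1, a selectin ligand of lymph node venules (at least 3.05-fold). Of 18 genes that cut, sulphate or present chemokines, 3 were higher in small intestine and 0 in colon, with a median of 0. Dpp4, a peptidase that trims the amino terminus of several chemokines, had 13.16 in small intestine and 8.60 in colon (23.6-fold), and the matrix proteases Mmp7 and Mmp13 were 116-fold and 5.20-fold higher. Of 22 related genes outside the family rule, Cd74, the invariant chain and receptor of Mif, was the only one past 3-fold, with 11.61 in small intestine and 8.58 in colon (8.21-fold).

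Markers of cells that carry chemokine receptors included calls for small intestine and none for colon in the T, B, plasma and NK or innate lymphoid cell lists. Counts in this and the next paragraph are to be read beside all 18194 named genes. Among these, 10418 were above background in small intestine and 10412 in colon, with 3.46% and 3.33% called. Of 16 T cell genes measured, 10 were above background in small intestine and 5 in colon, and 4 were called for the small intestine (median difference 0.35), namely Cd3g, Cd3d, Cd160 and Cd8a. The median level of the list was 5.38 in small intestine and 4.14 in colon. Cd3g had 8.31 in small intestine and 5.34 in colon, and Cd3d 8.10 in small intestine and 5.33 in colon. Of 12 B cell genes, 9 were above background in small intestine and 4 in colon, with Cd79b higher in the small intestine (3.82-fold). All 8 plasma cell genes were above background in small intestine and 6 in colon, with a median difference of 1.01, the opposite sign to that of Ccl28. Pou2af1 (8.03-fold), Mzb1 (4.61-fold) and Prdm1 (3.66-fold) were higher in the small intestine, whereas Jchain, the joining chain of secreted immunoglobulin A, was not past 3-fold, with 14.22 in small intestine and 13.32 in colon. Of 10 genes of NK and innate lymphoid cells, 4 were above background in small intestine and 1 in colon. Il7r alone was called for the small intestine (at least 6.46-fold), while Ncr1, Klrk1, Eomes, Gata3, Il2rb and Prf1 were not above background on either array. Of 13 macrophage genes, 12 were above background in small intestine and 11 in colon, with Aif1 higher in the small intestine (3.70-fold) and Cd14 higher in the colon (3.59-fold). The part of lymphocyte number in the values of Ccl5, Ccr9, Cxcr6 and the Cxcr3 ligands was not tested.

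Lists of other cells were read as well, none of which tells small intestine and colon apart, so that the tissue labels themselves were not checked. All 12 epithelial markers were above background on both arrays, with a median difference of 0.00, and 5 of 8 smooth muscle genes passed 3-fold towards the colon. Of 9 fibroblast genes 2 passed it in each direction, and of 8 dendritic cell, 11 vessel and 10 eosinophil or mast cell genes none did. All 10 genes of the exocrine pancreas measured were higher in the colon, with 2 above background in small intestine and 10 in colon and a median difference of -6.66. Whether pancreatic RNA bears on the level of Ccl28 or Ccl6 was not tested.

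**Figure D5:**
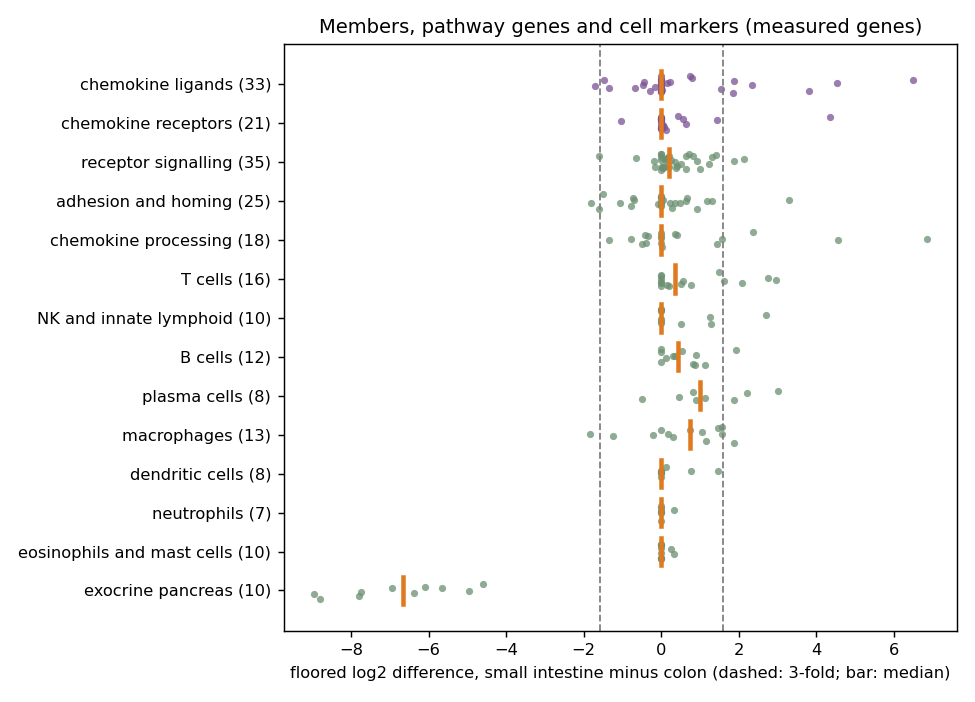
Each point is a gene, placed by its floored log2 difference between small intestine and colon (horizontal axis), for chemokine ligands, all receptors of the family, pathway genes and cell markers, with the number of genes measured in brackets. Orange bars show medians, and 3-fold is dashed. The medians of ligands and receptors are 0, and that of the exocrine pancreas is -6.66.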

How the data were processed

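Total RNA of a small intestine and a colon biopsy was extracted by the authors with an RNeasy kit, and its biotin-labelled product was put on Affymetrix Mouse 430 2.0 arrays, 1 for each tissue. The deposited values are log2 expression levels, already normalized, of each probe set. The submitters' processing notes name GCRMA, without a version, whereas the study's methods name RMA, and they point to another deposit. GCRMA can widen folds between bright and dim probe sets. Probe sets were named by the platform annotation. Of 45101 probe sets, 34958 named 1 gene, 932 named several and were left out, and 9211 were not in the table. All 54 members matched the RefSeq table by Entrez identifier with the same symbol. A gene was read from its brightest probe set (mean over the arrays). Differences are small intestine minus colon after raising values under 5 to 5, and calls are at 3-fold. The study also used this fold, but on sequencing levels and with 1 added to the level of the second tissue. Where 1 value lay at or below 5, the fold is a lower bound. The number of arrays limits the precision, and no test was possible.

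Both levels are given for every member above background on either array, the others by their range, and for other lists up to 4 genes past 3-fold with the largest differences. Members, lists, motifs and roles were chosen with earlier results of these data known. Motifs were sought in the 250 bases before each RefSeq start. Alternatives were background levels of 4 and 6, no floor, folds of 2 and 5, quantile normalization, median centring, and 3 other choices of probe set. Python 3.11.15, numpy 2.4.6, pandas 2.3.3 and matplotlib 3.10.9 were used.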

Additional observations from a re-analysis of the deposited data

How the results depend on the processing

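No paired analysis was possible because each tissue had 1 array. The count of members higher in the small intestine, 7, ran from 5 to 9 over the alternatives, and the median difference of the family from 0 to 0.08. The count for the colon, 1, was 4 at 2-fold, 0 at 5-fold and 0 with the median over probe sets, since that of Ccl28 was under 3-fold, and 1 under the other settings. Of 229 recomputed differences of the 29 members above background, 218 stayed on their side of 3-fold, 6 fell under it and 5 passed it, and none that was past it changed sign. Those that fell under it were Ccr9 and Cx3cl1 (0) and Ccl28 (-0.77) with the median over probe sets, Ccr9 (0) and Cxcl16 (1.42) without shared types of probe set, and Cxcl10 (0.85) at a background of 6. Without the shared types 3 of the 29, Ackr1, Ackr3 and Ccl27a, had no probe set left. Values near background limit the receptors most, because 6 of 17 were above it on 1 array and none on both.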
